A study of Mus musculus with 9 samples.

Results

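The genes described here are the mouse leucine-rich repeat synaptic adhesion genes, together with the netrin-G ligands of the Lrrc4 proteins. The rule that names them uses gene symbols and no measured value: the Lrrtm, Slitrk, Lrfn, Elfn, Lrrc4, Lingo, Flrt, Lrrn, Lrig and Ntng families. All 36 symbols that this rule allows were present among the 23319 gene symbols of the count table. RNA-seq read counts were available for 9 libraries of cortical interneurons from mice at postnatal day 5, 3 libraries for each of 3 Cre driver lines crossed to Ai47, a Cre-dependent green fluorescent reporter that all 3 groups carried. The Nkx2.1 group was Nkx2.1-CreER;Ai47, with tamoxifen given at embryonic day 17 to induce the recombinase, the SOM group was SOM-Cre;Ai47 and the VIP group was VIP-Cre;Ai47, and the SOM and VIP labels give no tamoxifen. The driver labels any cell with enough recombinase activity, so a group is a labelled population and not a single type by construction. Each library was made from 150 fluorescent cells picked from strips of layer 2/3 of medial prefrontal and anterior cingulate cortex. No label says whether the 3 libraries of a line came from separate mice, so the p-values describe variation among these samples, which may be technical.

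Apart from the netrin-Gs, proteins of these families carry an extracellular stack of leucine-rich repeats that binds a partner across the synaptic cleft or on the same membrane, and most sit on the postsynaptic side. Lrrtm proteins bind neurexins, Slitrk proteins and some Lrfn proteins bind the receptor tyrosine phosphatases of the LAR group, Flrt proteins bind latrophilins and Unc5 receptors, and Elfn proteins bind metabotropic glutamate receptors on the incoming axon. In cortical interneurons Elfn1 is best known from somatostatin cells, where it recruits the presynaptic receptor mGluR7, encoded by Grm7, and gives incoming excitatory synapses their facilitating release.

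The libraries held 6484488 to 12465997 reads in genes, and 8180 to 11490 genes had at least 1 read. Values are given as CPM, reads per 1000000 of the TMM-scaled library size, in the order replicate 1, 2 and 3, and 3 reads corresponded to 0.248 to 0.447 CPM. Genes that mark the lines followed the labels: Sst stood at 36.4, 0 and 16.7 CPM in Nkx2.1, 1606, 2180 and 1456 CPM in SOM and 0.124, 0 and 0 CPM in VIP, and Vip was above 400 CPM in the 3 VIP libraries alone. Lhx6, a transcription factor of interneurons from the medial ganglionic eminence, ranged from 888 to 1784 CPM in Nkx2.1, 608 to 822 CPM in SOM and 0 to 0.247 CPM in VIP. The driver gene Nkx2-1 itself was at or below 1.37 CPM in every library. The summed level of 7 GABAergic markers was 2274 to 3864 CPM across the 9 libraries, but 2 of them were lower in every Nkx2.1 library than in any other: Slc32a1, the vesicular GABA transporter, stood at 0.915 to 8.43 CPM in Nkx2.1, 15.3 to 75.2 CPM in SOM and 54.4 to 78.1 CPM in VIP, and Dlx6 at 0 to 0.751 CPM in Nkx2.1, 4.38 to 6.34 CPM in SOM and 7.85 to 48.6 CPM in VIP. Astrocyte markers, 8 of 8 with reads, summed to 3590, 668 and 255 CPM in Nkx2.1, 122, 212 and 64.4 CPM in SOM and 412, 415 and 264 CPM in VIP. In Nkx2.1 replicate 1 all 8 were at or above 1 CPM, while Slc1a2 alone gave 375, 216 and 230.5 CPM of the VIP sums. Oligodendrocyte lineage markers summed to 296, 261 and 304 CPM in Nkx2.1, 101, 266 and 191 CPM in SOM and 1.73, 112 and 46.8 CPM in VIP. In Nkx2.1 replicate 2 Pdgfra alone gave 260.5 CPM of that sum, so equal sums need not mean equal glial content. Excitatory neuron markers summed to 157 CPM or less in every library. Of 7 microglial markers, Cx3cr1, C1qc and Tmem119 had 0 reads in all 9 libraries, and the list summed to 18.0 CPM or less in each.

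Of the 36 members, 31 had at least 1 read and 5 had 0 reads in all 9 libraries: Lingo1, Lingo4, Lrig3, Lrrn4 and Slitrk6. That is 13.9% of the members, against 34.6% of 19296 protein-coding symbols in the table. The zero of Lingo1, which encodes a co-receptor of the Nogo receptor complex, does not stand alone. Lingo1 lies on the minus strand of chromosome 9, where 93.1% of 521 protein-coding genes had 0 reads in every library. The 20 nearest genes on that strand were all at 0, against 3 of 20 on the other strand. No level can therefore be given for Lingo1. Around the other members at 0, between 3 and 7 of the 20 nearest genes of the same strand were at 0.

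The number of members with at least 1 read was 30, 21 and 22 for Nkx2.1, 28, 30 and 29 for SOM and 29, 29 and 28 for VIP. With every library thinned to 6484488 reads, the means were 23.3 ± 4.16, 28.3 ± 2.08 and 28.7 ± 0.577 for Nkx2.1, SOM and VIP (SD, n = 3 each). Fewer members were thus seen in the Nkx2.1 replicates 2 and 3 than in any other library. The number of all genes with a read, at the same thinned depth, was 9088 ± 1198 for Nkx2.1, 11070 ± 312 for SOM and 10320 ± 697 for VIP, and its part in the lower member count was not tested. The members' summed level was 1605 ± 489 CPM for Nkx2.1, 1711 ± 264 CPM for SOM and 2082 ± 388 CPM for VIP.

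**Figure D1:**
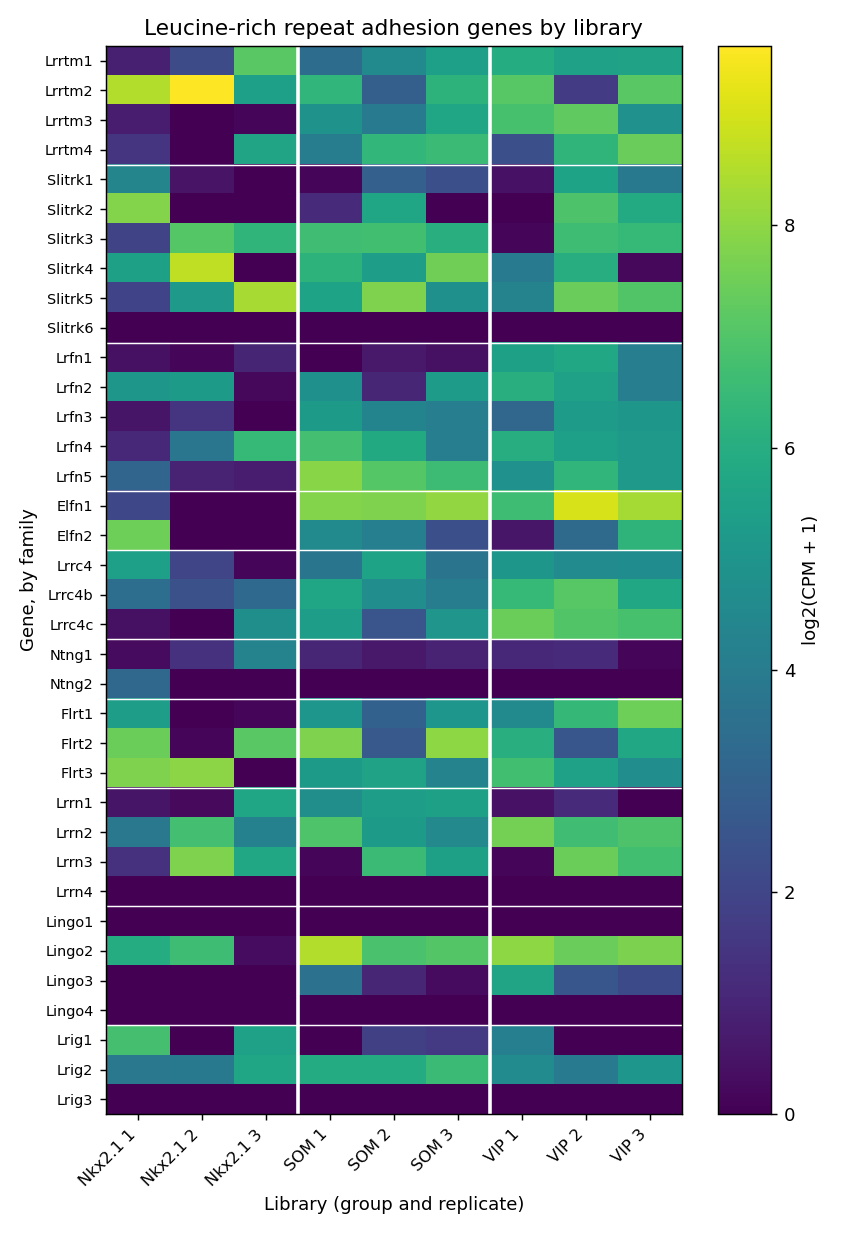
Level of the 36 genes in each library, as log2(CPM + 1), with genes in rows by family and the 3 Nkx2.1, 3 SOM and 3 VIP libraries in columns. Low levels are dark and high levels bright. The rows of Elfn1, Lrrtm3 and Lrfn5 are darker in the Nkx2.1 columns than in the SOM and VIP columns, while many Slitrk and Flrt rows vary between replicates of one line.

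Against the SOM libraries, the Nkx2.1 libraries had low levels of Elfn1, Lrrtm3, Lrfn5 and Lrfn3. Lingo3 had 0 reads in each Nkx2.1 library and 105, 7 and 2 reads in SOM, so its difference there rests on SOM replicate 1. Against the VIP libraries Elfn1, Lrrtm3, Lrfn5, Lrfn3 and Lingo3 were low, as were Lrfn1 and Lrrc4b. The spread between libraries in this table is wide, with a common biological coefficient of variation of 1.40. No member passed edgeR's quasi-likelihood test at an adjusted p of 0.05 over 10728 genes. Of the 36 members, 30 passed the filter on low counts, which asked for 3 libraries over its cutoff, and could be tested. Lrfn1 was over the cutoff in the VIP libraries alone. Lingo3 was over it in 3 VIP, 1 SOM and 0 Nkx2.1 libraries, and so needed VIP to pass. Lrrn1 was over it in 3 SOM libraries, 1 Nkx2.1 and 1 VIP library, and so needed SOM. The tested members are not all members, so their counts describe the 30 alone. Lrfn1 had to differ from VIP to be tested at all, and Lingo3 and Lrrn1 were tested only because of the line where their mean was highest.

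Between Nkx2.1 and SOM, edgeR called 0 of 30 members in either direction, against 0.0652% of all genes called higher and 0.028% called lower. At an unadjusted p under 0.05, 5 members were lower and 0 higher, or 16.7% of the members lower, against 8.38% of all genes lower and 2.92% higher. The 5 were Elfn1, Lingo3, Lrfn3, Lrfn5 and Lrrtm3. DESeq2, run as an alternative, gave an adjusted p for 28 members, all tested ones but Lrrc4 and Lrrn1, and called the same 5 lower and 0 higher at an adjusted p under 0.05, against 7.17% of all genes lower and 1.93% higher. In 8 members every Nkx2.1 library was below every SOM library, and in 0 was it the other way, against 14% and 5.9% of all genes. The 8 include Lingo3, whose 2 reads in SOM replicate 3 are below the floor of 3 reads. Between Nkx2.1 and VIP, edgeR called 0 members, against 0.177% of genes higher and 0.13% lower. At an unadjusted p under 0.05, 7 members were lower and 0 higher, or 23.3% lower, against 9.43% of all genes lower and 5.73% higher. Without Lrfn1 it was 6 of 29, or 20.7%, with Lingo3, tested only because of VIP, still among the 6. DESeq2 called the same 7 lower and 0 higher of 28, or 6 of 27 without Lrfn1, against 8.62% of genes lower and 4.37% higher. Lingo3 is again among those 6. The groups did not overlap in 9 members, Lrfn1 and Lingo3 included, all lower in Nkx2.1, against 12.8% of genes lower and 7.31% higher. Both comparisons use the same Nkx2.1 libraries. The median log2 difference over the 30 members was −0.49 for Nkx2.1 against SOM and −0.67 against VIP, where the median of all genes tested was −0.01 and 0.00.

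**Figure D2:**
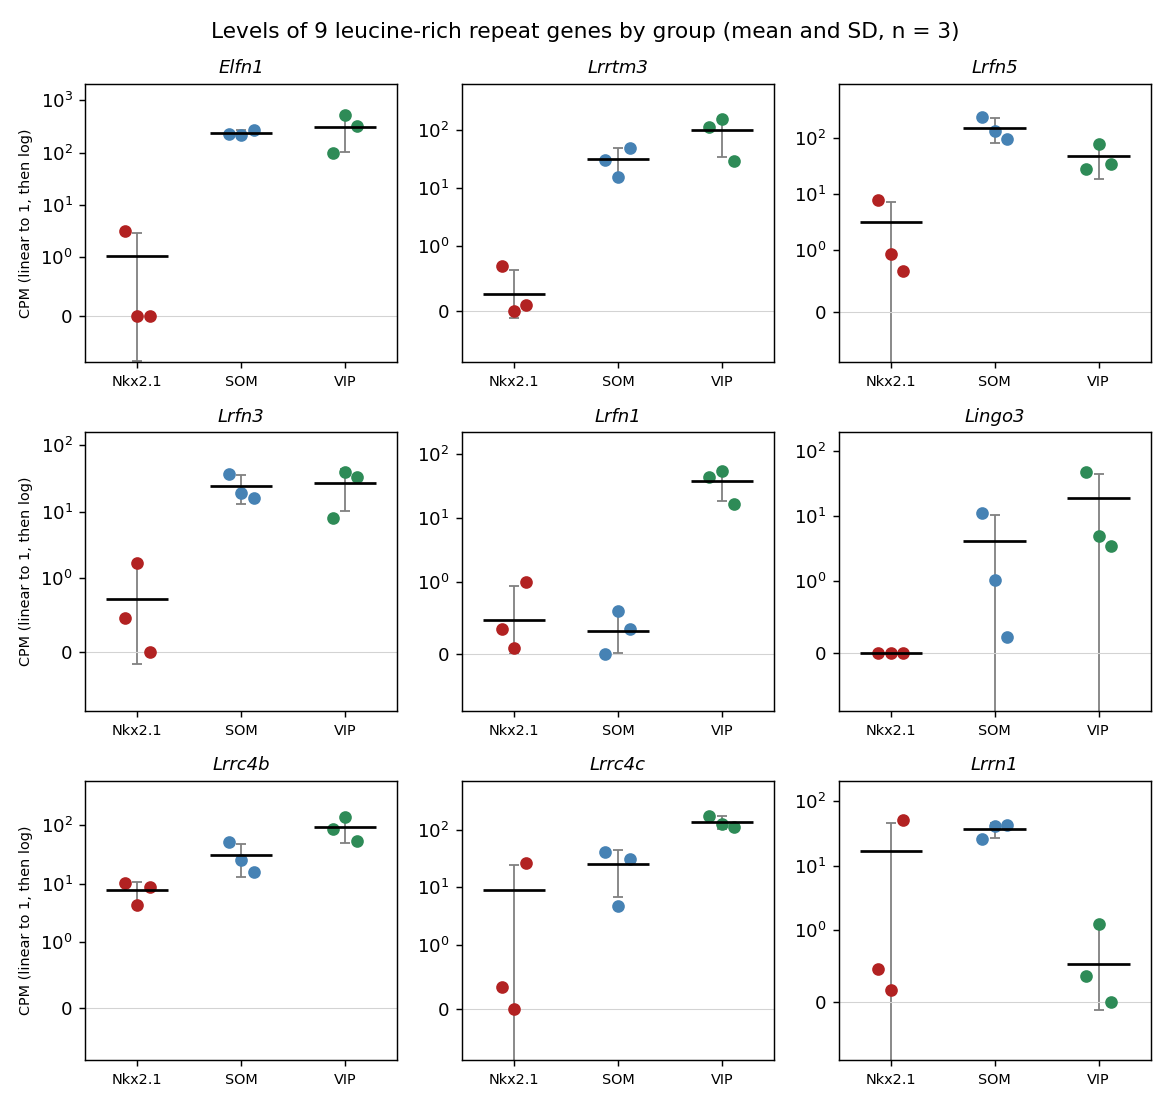
CPM of 9 members in each library (points), with the mean (line) and SD (bar) of the 3 Nkx2.1, 3 SOM and 3 VIP libraries. The axis is linear up to 1 CPM and logarithmic above, and bars that would reach below 0 run off the lower edge. The Nkx2.1 points of Elfn1 and Lrrtm3 lie at or below 3.20 CPM, and Lrfn1 is above 10 CPM in the VIP libraries alone.

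Elfn1, Lrfn5 and Lrrtm3 had the smallest edgeR p-values of the members in Nkx2.1 against SOM, and their promoters are shown for that reason. Each sequence covers 250 bases before and 50 after the RefSeq start in GRCm38.p6, on the gene's strand, with CG dinucleotides in capitals. That of Elfn1 lies at chr5:139907616-139907915 (plus strand), that of Lrrtm3 at chr10:64090206-64090505 (minus strand) and that of Lrfn5 at chr12:61522917-61523216 (plus strand).
Elfn1: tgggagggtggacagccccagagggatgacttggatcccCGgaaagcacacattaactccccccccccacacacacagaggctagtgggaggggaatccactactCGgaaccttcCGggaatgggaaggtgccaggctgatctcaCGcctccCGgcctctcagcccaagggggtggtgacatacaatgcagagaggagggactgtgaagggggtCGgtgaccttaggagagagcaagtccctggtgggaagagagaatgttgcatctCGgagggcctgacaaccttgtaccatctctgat
Lrrtm3: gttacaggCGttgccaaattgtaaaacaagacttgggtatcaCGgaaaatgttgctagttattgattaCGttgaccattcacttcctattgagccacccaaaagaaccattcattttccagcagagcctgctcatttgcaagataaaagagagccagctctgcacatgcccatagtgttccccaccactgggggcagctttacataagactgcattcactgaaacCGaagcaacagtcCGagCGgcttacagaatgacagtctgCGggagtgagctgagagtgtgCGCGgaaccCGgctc
Lrfn5: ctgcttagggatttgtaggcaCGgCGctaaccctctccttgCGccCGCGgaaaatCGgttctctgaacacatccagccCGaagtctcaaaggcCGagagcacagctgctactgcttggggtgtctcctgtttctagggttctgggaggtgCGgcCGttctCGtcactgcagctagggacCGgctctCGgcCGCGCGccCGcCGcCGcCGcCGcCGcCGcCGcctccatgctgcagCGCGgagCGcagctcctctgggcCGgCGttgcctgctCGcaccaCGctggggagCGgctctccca

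The promoters of Elfn1, Lrrtm3 and Lrfn5 held 7, 10 and 32 CG dinucleotides, and 52.1%, 43.5% and 9.52% of all 32851 mouse promoters held as many or more. Their GC content was 59.0%, 48.7% and 67.7%. The homeodomain core TAATTA was in none of the 3 windows. The E-box CANNTG, which is its own reverse complement, occurred 0, 2 and 1 times. RefSeq gave 35 promoters for 30 of the members, with a median of 10 CG dinucleotides against 7 over all promoters. TAATTA, also its own reverse complement, was in 5.71% of the member promoters, those of Lingo2 and Lrrc4, and in 5.29% of all promoters, and CANNTG was in 74.3% and 72.3%.

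Elfn1, on chromosome 5 with its whole coding sequence in 1 exon, stood at 3.20, 0 and 0 CPM in Nkx2.1, 228, 215 and 267 CPM in SOM and 97.5, 517 and 317 CPM in VIP. The SOM and VIP libraries were all at or above 97.5 CPM, and 2 of 3 Nkx2.1 libraries had no read of it. The log2 difference against SOM was −7.81 ± 1.86 (SE; edgeR adjusted p = 0.287), and that against VIP was −8.20 ± 1.89 (SE; edgeR adjusted p = 0.133). Without Nkx2.1 replicate 1, which held all 28 Elfn1 reads of the line, edgeR called Elfn1 lower against both SOM (adjusted p = 0.0182) and VIP (adjusted p = 0.0106). That fit left a line with 0 reads, so the call gives no support. The other 8 fits that left out 1 library did not call Elfn1, with edgeR adjusted p up to 0.612 against SOM and 0.285 against VIP. The mean CPM was 222-fold lower in Nkx2.1 than in SOM and 291-fold lower than in VIP, folds that rest on the reads of Nkx2.1 replicate 1. In such pools of cells, fewer cells with a transcript and less of it per cell cannot be told apart. Its paralogue Elfn2 had another pattern, at 177, 0 and 0 CPM for Nkx2.1, 22.7, 16.7 and 4.03 CPM for SOM and 0.494, 9.05 and 76.2 CPM for VIP. The groups overlapped for Elfn2, whose highest value was in Nkx2.1 replicate 1. The astrocyte marker sum was also highest in that library, and its part in the value was not tested.

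The Lrrtm genes encode postsynaptic neurexin ligands of excitatory synapses, and Lrrtm4 also binds heparan sulphate proteoglycans. Lrrtm3 stood at 0.686, 0 and 0.0835 CPM (Nkx2.1), 30.1, 15.2 and 48.7 CPM (SOM) and 112, 154 and 28.4 CPM (VIP). Every Nkx2.1 library was below 1 CPM and every other library above 15 CPM. On the log2 scale, the difference against SOM was −6.90 ± 1.90 (SE; edgeR adjusted p = 0.309), and that against VIP was −8.55 ± 2.03 (SE; edgeR adjusted p = 0.141). Lrrtm3 lies inside the alpha-catenin gene Ctnna3 on the opposite strand, and the reads of both moved together over the libraries. Lrrtm3 had 6, 0 and 1 reads in Nkx2.1, 281, 102 and 423 in SOM and 904, 1484 and 344 in VIP. Ctnna3 had 2, 3 and 1 reads in Nkx2.1, 333, 86 and 505 in SOM and 1174, 1602 and 367 in VIP. The annotation gives them 0 bases of exon in common. No source used here gives the counting program or its strand setting, and whether the 2 genes share reads was not tested, so the level of Lrrtm3 is uncertain.

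Lrrtm2, which also binds neurexins, was at the other end, with 359.5, 784 and 42.2 CPM in Nkx2.1, 80.0, 6.56 and 74.3 CPM in SOM and 138, 2.29 and 141 CPM in VIP. Its Nkx2.1 mean was the highest of any member, but the groups overlapped, and edgeR's adjusted p was 0.502 against SOM and 0.569 against VIP. Lrrtm2 lies inside Ctnna1 on the opposite strand with 95 bases of exon in common, and its level is uncertain, since the strand setting of the counting is not given. Its reads are set beside those of Ctnna1 with the nested genes. Lrrtm4 stood at 1.83, 0 and 47.5 CPM for Nkx2.1, 16.0, 81.7 and 93.1 CPM for SOM and 4.08, 76.5 and 168 CPM for VIP. Lrrtm1 stood at 0.801, 3.75 and 139.9 CPM (Nkx2.1), 9.62, 22.5 and 42.1 CPM (SOM) and 61.4, 44.5 and 45.9 CPM (VIP). Both ranged over more than 10-fold within Nkx2.1, where replicate 3 was highest for each, and Nkx2.1 overlapped SOM and VIP.

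The Lrfn genes encode the SALM proteins, of which several bind the postsynaptic scaffold PSD-95 and Lrfn4 and Lrfn5 bind LAR-group phosphatases. Lrfn5 stood at 7.89, 0.938 and 0.668 CPM in Nkx2.1, 237, 134 and 95.8 CPM in SOM and 27.8, 80.1 and 34.4 CPM in VIP. The 3 lines formed 3 ranges without overlap, SOM highest and Nkx2.1 lowest. In the edgeR fit, the log2 difference against SOM was −5.62 ± 1.41 (SE; edgeR adjusted p = 0.297), and that against VIP was −3.91 ± 1.30 (SE; edgeR adjusted p = 0.227). For SOM against VIP the log2 difference was 1.71 ± 1.19 SE (edgeR adjusted p = 0.9996). Lrfn3 stood at 0.458, 1.71 and 0 CPM for Nkx2.1, 37.2, 19.4 and 16.1 CPM for SOM and 8.04, 39.0 and 33.4 CPM for VIP. Every Nkx2.1 library was below 2 CPM and every SOM and VIP library above 8 CPM. The log2 difference against SOM was −5.05 ± 2.09 (SE; edgeR adjusted p = 0.406), and that against VIP was −5.19 ± 2.1 (SE; edgeR adjusted p = 0.286).

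Lrfn1, whose protein clusters glutamate receptors through PSD-95, stood at 0.343, 0.0853 and 1.00 CPM (Nkx2.1), 0, 0.597 and 0.346 CPM (SOM) and 43.8, 53.7 and 16.5 CPM (VIP). It was at or below 1.00 CPM in all Nkx2.1 and SOM libraries and above 16 CPM in all VIP libraries. The mean was 79.7-fold lower in Nkx2.1 and 121-fold lower in SOM than in VIP. These are given with no test, since Lrfn1 passed the filter on low counts through the VIP libraries alone. Lrfn2, which binds NMDA receptors, stood at 33.2, 36.5 and 0.167 CPM in Nkx2.1, 27.5, 1.04 and 39.2 CPM in SOM and 65.9, 44.4 and 16.3 CPM in VIP. Lrfn4 stood at 1.14, 12.5 and 86.4 CPM for Nkx2.1, 107, 57.0 and 16.1 CPM for SOM and 63.2, 41.8 and 35.4 CPM for VIP. For Lrfn2 and Lrfn4 all pairs of lines overlapped.

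The Lrrc4 genes encode the NGL (netrin-G ligand) proteins: Lrrc4c binds netrin-G1, Lrrc4 binds netrin-G2 and Lrrc4b binds the phosphatase LAR. Lrrc4b stood at 10.2, 4.26 and 8.77 CPM (Nkx2.1), 50.1, 25.4 and 15.8 CPM (SOM) and 85.8, 138 and 53.1 CPM (VIP). The 3 lines again did not overlap, with VIP highest and Nkx2.1 lowest, and Lrrc4b was the one member that stayed at or above 1 CPM and within 3-fold across the Nkx2.1 libraries. On the log2 scale, the difference in Nkx2.1 against VIP was −3.57 ± 1.24 (SE; edgeR adjusted p = 0.234), and that in Nkx2.1 against SOM was −1.97 ± 1.16 (SE; edgeR adjusted p = 0.604). Lrrc4c stood at 0.343, 0 and 26.8 CPM in Nkx2.1, 41.2, 4.77 and 31.3 CPM in SOM and 176, 127 and 111 CPM in VIP. All VIP libraries were above 100 CPM and all others below 42 CPM. In the edgeR fit, the log2 difference in SOM against VIP was −2.42 ± 1.93 (SE; edgeR adjusted p = 0.9996). Lrrc4 stood at 41.5, 2.98 and 0.0835 CPM for Nkx2.1, 12.2, 46.5 and 11.9 CPM for SOM and 33.1, 24.0 and 24.4 CPM for VIP, and the lines overlapped. The netrin-G genes were nearly silent: Ntng1 was at 18.7 CPM in Nkx2.1 replicate 3 and at or below 1.62 CPM in the other 8 libraries. Ntng2 had reads in Nkx2.1 replicate 1 alone, at 8.47 CPM, and did not pass the filter. That library also had the highest astrocyte marker sum, whose part in the Ntng2 value was not tested.

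The Slitrk genes encode postsynaptic ligands of LAR-group phosphatases, and Slitrk3 promotes inhibitory synapses through PTPδ, encoded by Ptprd. Slitrk3 stood at 2.97, 133 and 77.7 CPM (Nkx2.1), 102, 104 and 64.6 CPM (SOM) and 0.124, 97.0 and 85.7 CPM (VIP). Slitrk4 stood at 42.8, 414 and 0 CPM in Nkx2.1, 73.4, 39.7 and 183 CPM in SOM and 14.3, 62.2 and 0.165 CPM in VIP. Slitrk5 stood at 2.86, 35.7 and 326 CPM for Nkx2.1, 46.7, 217 and 27.4 CPM for SOM and 18.8, 169.5 and 126 CPM for VIP. In each of these 3 genes all lines overlapped, and the highest and lowest replicate of Nkx2.1 differed by more than 40-fold. Slitrk2 stood at 227, 0 and 0 CPM (Nkx2.1), 1.28, 50.3 and 0 CPM (SOM) and 0, 121 and 57.6 CPM (VIP). Slitrk1 stood at 19.9, 0.426 and 0 CPM in Nkx2.1, 0.107, 6.71 and 4.03 CPM in SOM and 0.371, 47.4 and 13.7 CPM in VIP. Slitrk1 and Slitrk2 were near 0 in 2 of 3 Nkx2.1 libraries and highest there in replicate 1, the library with the highest astrocyte marker sum, whose part was not tested. Both genes overlapped between the lines. No Slitrk gene had an unadjusted p under 0.05 in any edgeR comparison.

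The Flrt proteins bind latrophilins and Unc5 receptors and guide migrating neurons as well as synapses. Flrt2 stood at 174, 0.0853 and 142 CPM for Nkx2.1, 214, 5.37 and 250.1 CPM for SOM and 63.8, 4.89 and 53.7 CPM for VIP. Flrt3 stood at 216, 244 and 0 CPM (Nkx2.1), 36.8, 45.2 and 18.9 CPM (SOM) and 102, 44.8 and 24.9 CPM (VIP). Flrt1 stood at 39.8, 0 and 0.0835 CPM in Nkx2.1, 32.4, 6.86 and 32.2 CPM in SOM and 23.0, 82.6 and 181 CPM in VIP. Nkx2.1 overlapped both other lines for each Flrt gene, and Nkx2.1 replicate 2 had mainly Flrt3 while replicate 3 had Flrt2. The Lrrn proteins are neuronal leucine-rich repeat receptors. Lrrn1 stood at 0.458, 0.171 and 50.3 CPM for Nkx2.1, 25.7, 41.3 and 42.6 CPM for SOM and 0.371, 1.25 and 0 CPM for VIP. All SOM libraries were above 25 CPM and all VIP libraries below 1.3 CPM, and Nkx2.1 had both kinds. The log2 difference in SOM against VIP was 6.05 ± 2.70 (SE; edgeR adjusted p = 0.708). Lrrn1 passed the filter on low counts only because of its SOM libraries, so this test gives no support. The mean of Lrrn1 was 67.7-fold higher in SOM than in VIP.

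Lrrn2 stood at 13.5, 107 and 17.6 CPM (Nkx2.1), 126, 36.8 and 21.9 CPM (SOM) and 195, 102 and 122 CPM (VIP), and the lines overlapped. Lrrn3 stood at 1.60, 216 and 53.4 CPM in Nkx2.1, 0.107, 92.0 and 42.6 CPM in SOM and 0.124, 174 and 104 CPM in VIP. Lrrn3 ranged from under 2 CPM to over 90 CPM within each line, and replicate 1 was the lowest in each. No pairing of the libraries by replicate number was seen over all genes. Lrrn3 lies inside Immp2l, on the opposite strand with 0 bases of exon in common. Whether they share reads was not tested, and the level of Lrrn3 is uncertain.

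Lingo2 encodes a LINGO protein expressed in brain. It stood at 61.4, 98.2 and 0.250 CPM for Nkx2.1, 364, 113 and 131 CPM for SOM and 254, 172 and 209.9 CPM for VIP. Every Nkx2.1 library was below every SOM and VIP library, though the highest Nkx2.1 value was near the lowest SOM one, and edgeR's adjusted p was 0.697 against SOM and 0.553 against VIP. Lingo3 had 0 reads in each Nkx2.1 library, 11.2, 1.04 and 0.230 CPM in SOM and 48.2, 5.00 and 3.47 CPM in VIP. Replicate 1 held 105 of the 114 SOM reads of Lingo3 and 390 of its 480 VIP reads. The edgeR adjusted p was 0.345 for Nkx2.1 against SOM and 0.193 against VIP. Lingo3 passed the filter on low counts only because of its VIP libraries, so the test against VIP gives no support. Lrig1, which restrains ErbB receptors, stood at 109, 0 and 44.7 CPM (Nkx2.1), 0, 2.54 and 2.07 CPM (SOM) and 16.6, 0 and 0 CPM (VIP). Its highest value was in Nkx2.1 replicate 1, whose astrocyte marker sum was also highest, with its part not tested, and the groups overlapped. Lrig2 stood at 13.4, 13.6 and 50.2 CPM in Nkx2.1, 59.4, 60.1 and 93.1 CPM in SOM and 23.9, 15.1 and 31.8 CPM in VIP. For Lrig2 every SOM library was above every Nkx2.1 and every VIP library, while Nkx2.1 and VIP overlapped, and edgeR's adjusted p was 0.799 for Nkx2.1 against SOM and 0.9996 for SOM against VIP.

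Between SOM and VIP, edgeR called 0 of 30 members, against 0.0559% of genes called higher and 0.0186% called lower. At an unadjusted p under 0.05, 1 member was higher, Lrrn1, and 1 lower, Lrfn1, against 4.63% and 2.36% of all genes. Lrrn1 was tested only because of its SOM libraries, so its count is no support for a difference. Of 28 members with an adjusted p, which leaves out Lrrn1, DESeq2 called Lrfn1 lower and 0 higher, against 1.63% of genes lower and 3.11% higher. Without Lrfn1, which the filter let in through VIP alone, 0 members were lower by either rule. The libraries did not overlap in 3 members higher in SOM, namely Lrfn5, Lrig2 and Lrrn1, against 10.9% of genes. They did not overlap in 4 members lower in SOM, namely Lrfn1, Lrrc4b, Lrrc4c and Lrrtm1, against 9% of genes. Without Lrfn1 it was 3 of 29, or 10.3%, which is near that share. For Lrrtm1 the highest SOM value, 42.1 CPM, was near the lowest VIP value, 44.5 CPM. The 3 higher in SOM include Lrrn1, which was tested only because of SOM. The median log2 difference over the 30 members was −0.79 and that of all genes 0.00, and 22 of 30 members had a fitted value below 0, against 5375 of 10728 genes.

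Levels of different genes were compared per kilobase of exon. In Nkx2.1 the highest member was Lrrtm2 at 65.6 ± 61.8 CPM per kilobase (SD, n = 3), followed by Flrt3 at 31.5 ± 27.4 and Lrrn3 at 23.3 ± 28.9. The levels of Lrrtm2 and Lrrn3 are uncertain, as given above, and Flrt3 had 0 reads in Nkx2.1 replicate 3. In SOM the highest member was Elfn1 at 56.8 ± 6.52 CPM per kilobase, followed by Lingo2 at 24.4. In VIP it was Elfn1 at 74.4 ± 50.3 CPM per kilobase, followed by Lrrn2 at 38.8 and Lrrc4b at 31.5. The lead of Elfn1 over the next member exceeded its SD in SOM and was smaller than its SD in VIP, and the lead of Lrrtm2 in Nkx2.1 was smaller than its SD.

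Members differed in how steady they were between libraries of one line. A member was counted as switching where it stood above 20 CPM in 1 library and below 1 CPM in another of the same line, limits that were chosen after the values were seen. Among members above 20 CPM in at least 1 library of the line, 14 of 21 switched in Nkx2.1, 2 of 25 in SOM and 6 of 27 in VIP. Among all genes tested the shares were 42.2% in Nkx2.1, 13.9% in SOM and 26.5% in VIP, against 66.7%, 8% and 22.2% of the members. The 2 members that switched in SOM were Lrrn3 and Slitrk2, and in VIP they were Elfn2, Lrrn3 and Slitrk1 to Slitrk4. Conversely, 7 members stayed within 3-fold and at or above 1 CPM in SOM and 9 in VIP, among them Elfn1, Lrfn3 and Lrrn1 in SOM, Lrrc4c and Lrrn2 in VIP, and Lrfn5 and Lrig2 in both. That is 23.3% of the tested members in SOM and 30% in VIP, against 43.8% and 31.7% of all genes, and in Nkx2.1 it was 3.33% of members against 17.04% of genes.

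**Figure D3:**
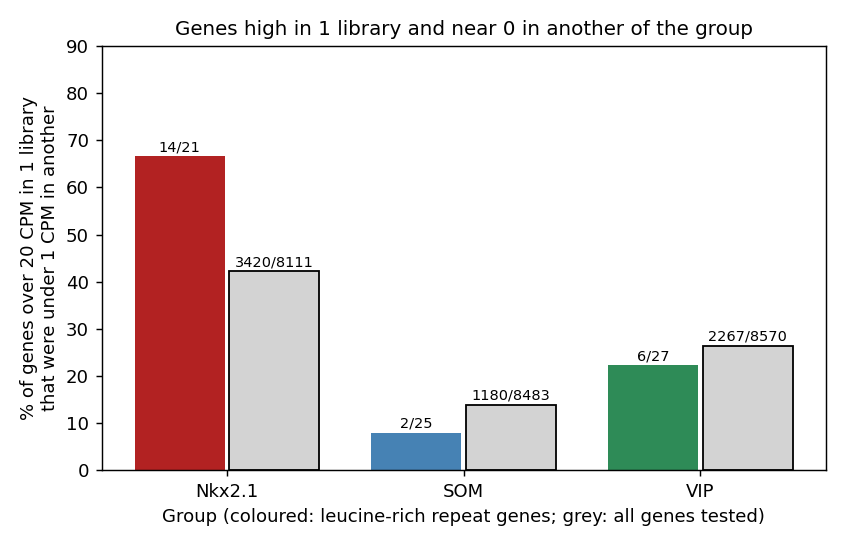
Share of genes, in percent, that stood above 20 CPM in 1 library and below 1 CPM in another library of the same line, among genes above 20 CPM in at least 1 library of that line, for the members and for all genes tested. The Nkx2.1 bars are the highest for both, at 66.7% of the members and 42.2% of all genes.

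Many members have a gene structure that the symbol rule did not use. In the GENCODE M21 annotation, 19 of 36 members (52.8%) have their whole coding sequence in 1 exon, against 15.0% of 19321 protein-coding symbols, and the median number of coding exons is 1 against 7. Of the members, 9 lie inside the span of a gene on the opposite strand. Reads of Lrrtm2 were 3143, 9193 and 506 in Nkx2.1, 748, 44 and 645 in SOM and 1117, 22 and 1709 in VIP. Those of its host Ctnna1 were 4277, 8676 and 494 in Nkx2.1, 1489, 260 and 638 in SOM and 1404, 32 and 1750 in VIP. The 2 counts were within 2-fold of each other in 8 of the 9 libraries, SOM replicate 2 being the exception. Reads of Lrrn3 were 14, 2529 and 640 in Nkx2.1, 1, 617 and 370 in SOM and 1, 1668 and 1261 in VIP. Those of its host Immp2l were 14, 2490 and 587 in Nkx2.1, 443, 656 and 332 in SOM and 0, 1672 and 1146 in VIP. In the 6 libraries with at least 20 reads of both genes, the counts were within 2-fold of each other, while SOM replicate 1 had 1 read of Lrrn3 and 443 of Immp2l. For Lrrtm3 and Ctnna3 they were within 2-fold in all 6 such libraries. Spearman's rho of the CPM values over the 9 libraries, which pools the 3 lines, was 0.95 for Lrrtm2 and 0.95 for Lrrtm3. For Lrrn3 it was 0.883, and for Flrt1 with its host Macrod1 0.833. It was between −0.167 and 0.483 for Lrfn4, Lrrc4, Flrt3, Lrrtm1 and Lrfn1. A rho of at least 0.9 occurred in 22.2% of the 9 member pairs and in 20.9% of 86 other nested pairs of opposite strands.

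**Figure D4:**
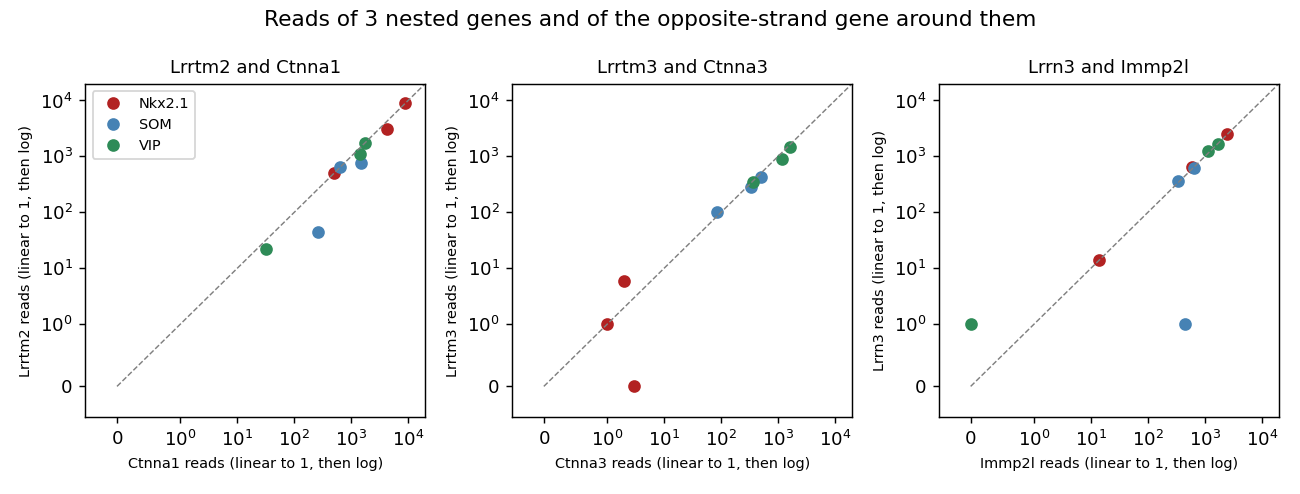
Reads of 3 members against reads of the gene on the opposite strand whose span holds them, 1 point per library, coloured by line, with a line of equal counts. Both axes are linear up to 1 read and logarithmic above. Of the libraries with at least 20 reads of both genes, 8 of 9 for Lrrtm2, 6 of 6 for Lrrtm3 and 6 of 6 for Lrrn3 lie within 2-fold of that line.

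Known partners of these proteins were followed as a list of 36 genes, of which 34 had reads, Grm6 and Ngfr had none, and 30 were tested. In Nkx2.1 against SOM edgeR called 1 higher, Erbb4, a receptor kinase that Lrig1 restrains, and 0 lower, while 4 were higher and 4 lower at an unadjusted p under 0.05 (2.92% and 8.38% of all genes) and DESeq2 called 3 higher and 4 lower (1.93% and 7.17% of all genes). In Nkx2.1 against VIP and in SOM against VIP edgeR called 0. At an unadjusted p under 0.05, Nkx2.1 against VIP had 6 higher and 6 lower (5.73% and 9.43% of all genes), and DESeq2 called 5 and 5 (4.37% and 8.62%). SOM against VIP had 4 higher and 7 lower at an unadjusted p under 0.05 (4.63% and 2.36% of all genes), and DESeq2 called 3 and 4 (3.11% and 1.63%). Ret had 0 reads in every Nkx2.1 and SOM library and 575, 666 and 255 in VIP, so it passed the filter through VIP alone. Ret is among those lower at an unadjusted p under 0.05 in both comparisons with VIP, and had to differ from VIP to be tested. The median log2 difference of the list was 0.14 in Nkx2.1 against SOM, 0.23 in Nkx2.1 against VIP and −0.38 in SOM against VIP, where the medians of all genes were −0.01, 0.00 and 0.00. Erbb4 stood at 2040, 2627 and 1356 CPM for Nkx2.1, 75.4, 85.9 and 142 CPM for SOM and 366, 216 and 1043 CPM for VIP. All Nkx2.1 libraries were above all others, and the log2 difference was 4.31 ± 0.62 SE against SOM (edgeR adjusted p = 0.0458). Leaving out 1 library at a time, the call was kept in 3 of 9 fits, with adjusted p between 0.0164 and 0.250, and was lost without Nkx2.1 replicate 2 or 3, without any 1 of the SOM replicates and without VIP replicate 1.

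Grm7, the axonal receptor that Elfn1 recruits, stood at 5.15, 0 and 0 CPM (Nkx2.1), 25.7, 108 and 155 CPM (SOM) and 39.4, 166 and 646 CPM (VIP). It was near 0 in the Nkx2.1 libraries, with an edgeR adjusted p of 0.362 against SOM and 0.198 against VIP. These values are of Grm7 in the labelled cells. The incoming axons, where Elfn1 recruits its protein, were not measured. Nrxn3, a partner of Lrrtm proteins, stood at 2015, 1842 and 1364 CPM in Nkx2.1, 1567, 1389 and 2087 CPM in SOM and 1206, 685 and 1699 CPM in VIP. It was at or above 685 CPM in all 9 libraries, and the lines overlapped. Ptprd, the partner of Slitrk3, stood at 1852, 2076 and 2954 CPM for Nkx2.1, 1030, 358 and 653 CPM for SOM and 1548, 986 and 1960 CPM for VIP. Ptprs, a further LAR-group phosphatase, stood at 610.4, 558 and 873 CPM (Nkx2.1), 429.8, 345 and 458 CPM (SOM) and 1018, 1138 and 979 CPM (VIP). Both stayed above 300 CPM throughout, with Ptprd lowest in SOM, whose libraries were all below those of Nkx2.1, and Ptprs highest in VIP. The Flrt partners included the latrophilins Lphn1, with 382, 156 and 160.4 CPM in Nkx2.1, 428, 399 and 217 CPM in SOM and 720.4, 391 and 471 CPM in VIP, and Lphn3, with 786, 382 and 229 CPM for Nkx2.1, 486, 266 and 727 CPM for SOM and 243, 299 and 375 CPM for VIP. For Lphn1 both Nkx2.1 and VIP overlapped SOM, and every Nkx2.1 library was below every VIP library. For Lphn3 all pairs of lines overlapped.

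The Flrt partner Unc5d, a repulsive guidance receptor, stood at 1027, 232 and 557 CPM (Nkx2.1), 98.8, 218 and 215 CPM (SOM) and 0, 0.104 and 44.9 CPM (VIP). Unc5c stood at 195, 127 and 554 CPM in Nkx2.1, 0.962, 0.597 and 17.6 CPM in SOM and 57.2, 38.5 and 79.3 CPM in VIP. Both were highest in Nkx2.1, where every library was above every library of SOM and VIP, as in 5.9% and 7.31% of all genes. For Unc5d the lowest Nkx2.1 value was near the highest SOM one. The edgeR adjusted p was 0.852 against SOM and 0.250 against VIP for Unc5d, and 0.309 and 0.429 for Unc5c. The scaffold gene Dlg2 stood at 276, 712 and 385 CPM for Nkx2.1, 747, 502 and 713 CPM for SOM and 182, 280.4 and 705 CPM for VIP. The neurotrophin receptor gene Ntrk2 stood at 724, 622 and 470.4 CPM (Nkx2.1), 539, 394 and 621 CPM (SOM) and 889, 392 and 538 CPM (VIP). Neither separated the lines.

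**Figure D5:**
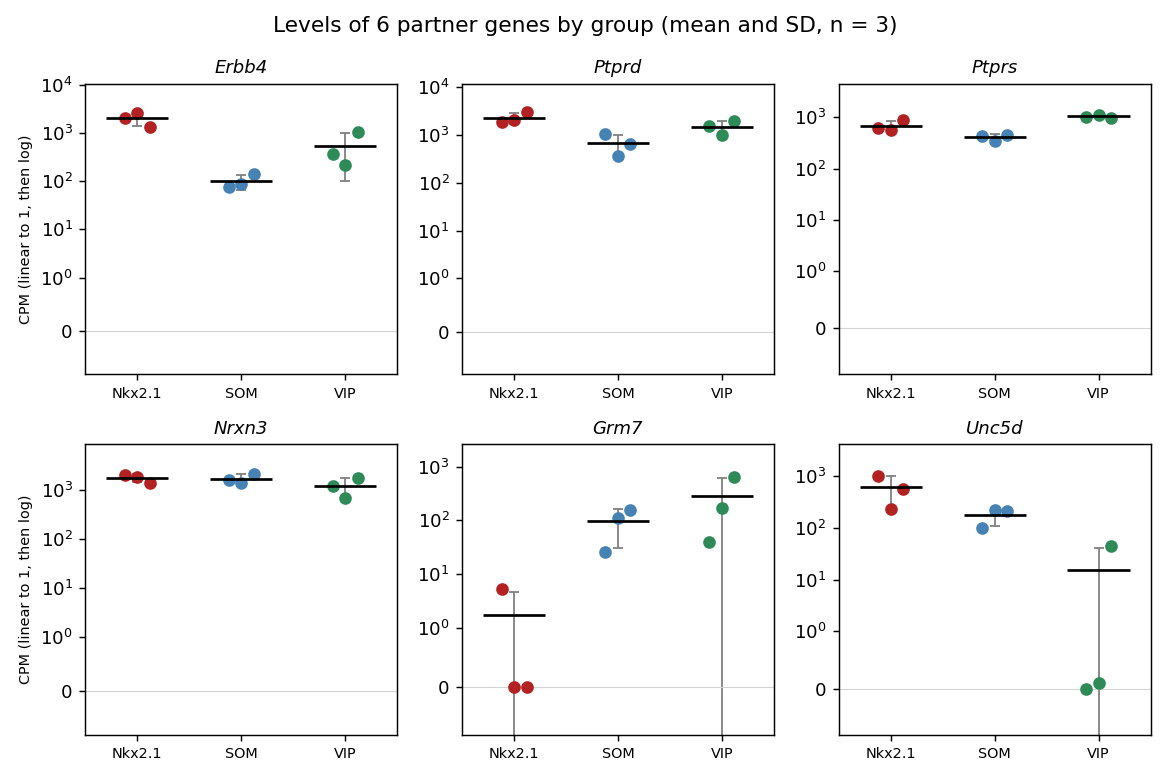
CPM of 6 partner genes in each library (points), with the mean (line) and SD (bar) of the 3 Nkx2.1, 3 SOM and 3 VIP libraries. The axis is linear up to 1 CPM and logarithmic above, and bars that would reach below 0 run off the lower edge. Erbb4 is at or above 1356 CPM in the Nkx2.1 libraries and at or below 142 CPM in the SOM libraries.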

How the data were processed

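Raw read counts per gene were deposited by the authors, 1 table per library, which list 23319 gene symbols followed by 5 summary entries. Those entries held 83.6% to 85.2% of each table's total and stayed out of library sizes and tests. Per the submitters' processing notes, TopHat2 2.0.9, DESeq2 and mm10 were used, with no role given; neither the counting program nor its strand setting is given there. The members and lists were chosen with earlier results of these data known.

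Counts were tested with edgeR 4.0.16 in R 4.3.3: TMM scaling, a minimum count of 10 in filterByExpr, 1 quasi-likelihood fit of all 9 libraries with 6 residual degrees of freedom, and Benjamini-Hochberg adjustment over 10728 genes at a threshold of 0.05. The fitting steps were checked on simulated data with less spread than the common value of these libraries. That check therefore does not show how well changes could be called here. CPM is the count divided by the TMM-scaled library size, times 1000000. Every member is accounted for, and values per library are given for the 28 members with a mean of at least 20 CPM in a line, for Lingo3 and, among partners, for those called or with a mean of at least 200 CPM. The values of 1 partner in the list are not reported here. Alternatives were DESeq2 1.42.0, RLE size factors, other count filters, a replicate block, fits of only the lines compared and leaving out each library. Figures and summaries used Python 3.11.15. Gene positions, strands and exons came from GENCODE M21 (GRCm38), and promoter sequences from RefSeq (GRCm38.p6). Depth was 6484488 to 12465997 reads in genes per library, and floors and shares cover counting error only.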

Additional observations from a re-analysis of the deposited data

How the results depend on the processing

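No log2 difference given with a test changed sign under the alternatives run. Of the alternative values with an adjusted p, 336 kept their side of the threshold, 15 passed it where the main value did not, and 7, all of Erbb4, no longer passed. Member counts by edgeR stayed at 0 under RLE size factors, other count filters, the replicate block and fits of only the lines compared. With DESeq2 the members called lower were 5 in Nkx2.1 against SOM, 7 in Nkx2.1 against VIP and 1 in SOM against VIP, and the cause was not tested. Leaving out each library gave 0 to 1 members lower in Nkx2.1 against SOM, 0 to 1 in Nkx2.1 against VIP and 0 in SOM against VIP, and 0 members higher in each. The 1 was Elfn1 without Nkx2.1 replicate 1, with a log2 difference of −14.18 against SOM and −14.55 against VIP, fitted against a line with 0 reads and therefore set by the prior count.

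Counts over all genes moved more. The edgeR counts were 7 higher and 3 lower in Nkx2.1 against SOM, 19 and 14 in Nkx2.1 against VIP, and 6 and 2 in SOM against VIP. DESeq2 gave 200 and 745, 463 and 914, and 330 and 173 for these comparisons in the same order. With only the lines compared, the counts were 4 and 1 in Nkx2.1 against SOM, 10 higher in Nkx2.1 against VIP, and 14 and 18 in SOM against VIP. With no filter, SOM against VIP had 14 and 7. Leaving out each library gave 0 to 8 higher and 0 to 29 lower in Nkx2.1 against SOM, 9 to 18 and 3 to 36 in Nkx2.1 against VIP, and 3 to 9 and 0 to 8 in SOM against VIP.

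With the replicate number as a block, all-gene counts were 3 and 1 in Nkx2.1 against SOM, 8 and 3 in Nkx2.1 against VIP, and 3 and 1 in SOM against VIP, 0 members were called, and Erbb4 had an adjusted p of 0.0832. Deviations of same-numbered libraries had correlations of −0.0412 to 0.0671, with 0 of 9 pairs over 0.1. The other pairs had −0.0708 to 0.0623. In both other lines at once, 0 libraries correlated best with their own number. SOM replicates 1 and 2 did so within VIP, and VIP replicate 1 within SOM. No pairing by number was seen, though groups of 3 libraries cannot exclude one.

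An alternative added after seeing the data left out each library from the counts of members without overlap. Nkx2.1 against SOM then had 0 to 2 higher and 8 to 13 lower, Nkx2.1 against VIP 0 to 2 and 10 to 13, and SOM against VIP 3 to 5 and 4 to 9, since groups of fewer libraries overlap less often. The share over all genes was not taken for these smaller groups, so the counts are not a result about the members. The highest count lower in Nkx2.1 against SOM, 13, was without Nkx2.1 replicate 3, and the highest lower in SOM against VIP, 9, was without VIP replicate 1. At a minimum of 3 reads, 21.7 members on average were seen in Nkx2.1, 28 in SOM and 27.3 in VIP, and at 1 read 24.3, 29 and 28.7. Depth limits members near 3 reads, below which presence and absence could not be separated.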
